A study of Homo sapiens with 4 samples.

Results

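The 10 genes described here encode proteins that the liver secretes into plasma: the fibrinogen chains FGA, FGB and FGG, the protease inhibitors SERPINA1 and SERPINA3, the carriers HP, TF and CP, the phospholipid-binding protein APOH and the siderophore-binding protein LCN2. They were chosen by name from the gene identifiers of the deposited tables, which hold 25192 genes, as secreted cargo of the liver type that A549 cells may express. RNA was sequenced from A549, a human lung adenocarcinoma cell line, 48 h after infection. The EV group (2 libraries) received the control virus with an empty vector, and the FCN3 group (2 libraries) received a virus expressing FCN3, a secreted lectin with a fibrinogen-like domain. By the methods of the study, both are pLZRS-IRES-GFP retroviruses, so that the control cells express GFP as well, and the FCN3 protein carries a V5 tag. FCN3 is thus expressed from a vector in a single cell line, and the transduced cells were sequenced in bulk. The comparison asks whether the RNAs of other secreted plasma proteins differed between EV and FCN3-virus-transduced cells.

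Plasma proteins of this kind enter the endoplasmic reticulum (ER) by a signal peptide, are folded and joined by disulfide bonds there, and leave in coated vesicles. Fibrinogen is a disulfide-linked dimer, each part of which holds an Aα, a Bβ and a γ chain, and a chain that finds no partners is kept back and degraded. In liver, several genes of this group are known for C/EBP sites in their promoters, and many of them belong to the acute phase response that interleukin-6 drives through STAT3 and interleukin-1 through NF-κB. Only RNA was measured here, not secretion.

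The libraries held between 16353554 and 35733735 expected counts, replicate 1 being the deeper in each group, so that 3 counts, the floor used for detection, corresponded to between 0.084 and 0.183 CPM (counts scaled to the library total). Intervals and floors cover counting error only. FCN3 itself had 1 and 0 expected counts in the EV libraries and 722388 and 448352 in the FCN3 libraries. The epithelial markers KRT7, KRT8 and KRT18 lay between 1131 and 4459 CPM in every library, while EPCAM lay between 1.00 and 3.11 CPM. Of 9 hepatocyte markers, ALB, APOB and G6PC were at 0 in all libraries, and the summed level of the list was between 0.299 and 0.412 CPM in EV cells and between 0.553 and 0.590 CPM in FCN3 cells. Of the 6 epithelial markers, 4 were higher and 2 lower with the FCN3 virus, and 0 passed the FDR of 0.01 in edgeR without pairing. When paired by replicate number, 3 passed as higher and 2 as lower, where 19.1% and 17.1% of all tested genes did. KRT19 was at 30.3 ± 10.2 CPM in EV and 70.9 ± 5.00 CPM in FCN3 cells (SD, n = 2, log2 fold change 1.24, edgeR adjusted p = 0.0397), while EPCAM (-1.12, adjusted p = 0.117) and CDH1 (-0.53) were lower. Of 6 blood cell markers, CD68 alone passed the filter on low counts, at 32.0 ± 1.43 and 55.3 ± 9.09 CPM (higher by 0.79 on the log2 scale, with an edgeR adjusted p of 0.0357, or 5.57e-13 when paired by replicate number). The part of these markers in the results was not tested.

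As the labels give replicate numbers 1 and 2 in each group, the comparison is given in an unpaired fit and in a fit that pairs libraries by this number (the replicate block). The labels do not say what a shared number marks, nor whether libraries came from separate cultures, so that the p-values measure the spread between these libraries, which may be technical. All other CPM values are normalised by the TMM method. Adjusted p-values are from edgeR's quasi-likelihood test with Benjamini-Hochberg adjustment over 14099 tested genes, with an FDR of 0.01 as the threshold.

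Of the 10 genes, 8 were detected at low levels, and HP and TF were at 0 or 1 count. Together the 10 took 7.63 and 21.5 TPM, a level scaled to transcript length and library size, in EV replicates 1 and 2, and 4.84 and 8.49 TPM in FCN3 replicates 1 and 2. The FCN3 transcript alone took 41618 and 44730 TPM in the latter libraries. By TPM averaged over all 4 libraries, APOH was the highest of the 10 and had 11137 genes above it, although FGA, FGB and FGG, at 6.59, 5.74 and 4.35 TPM, exceeded its 3.05 TPM in EV replicate 2. FGA, FGB, FGG, SERPINA3, CP, APOH and LCN2 passed the filter on low counts, while SERPINA1, HP and TF did not.

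**Figure D1:**
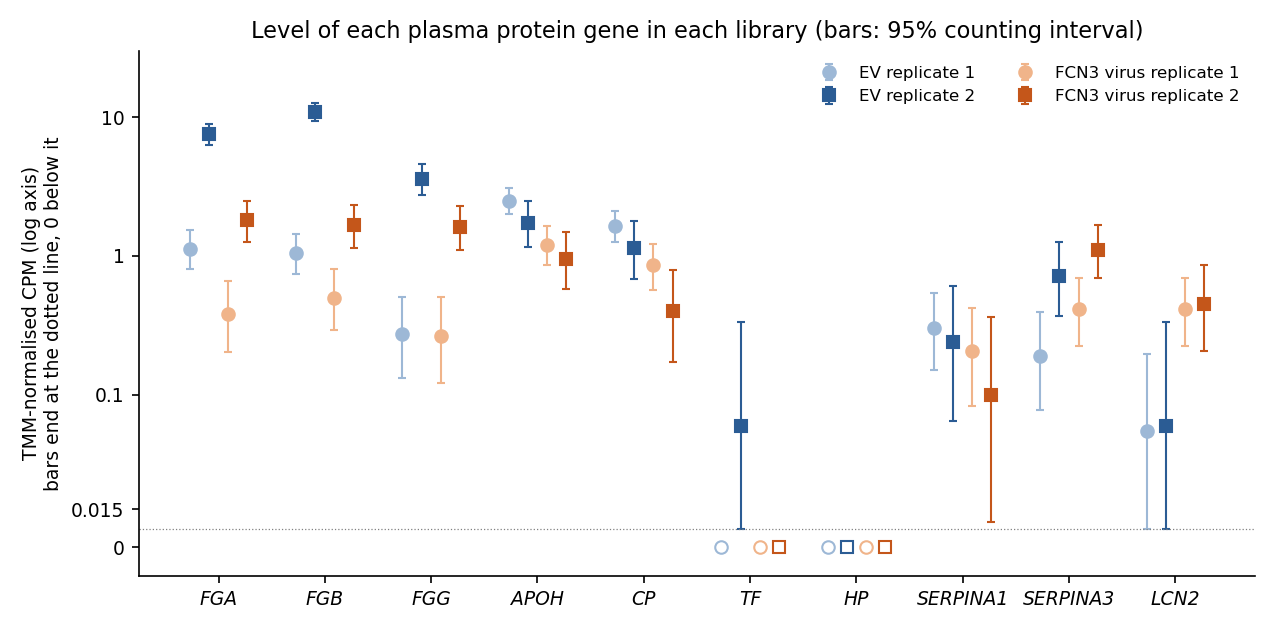
Level of the 10 plasma protein genes in each of the 4 libraries, as TMM-normalised CPM on a log axis, with counting intervals of 95% as bars and open symbols below the dotted line for libraries without a count. Intervals of single low counts end at that line. In FGA, FGB and FGG the replicate 2 library lies above the replicate 1 library of its group, whereas LCN2 is higher, and APOH, CP and SERPINA1 are lower, in both FCN3 libraries than in both EV libraries. Such a separation of the groups, in either direction, was shown by 54.5% of all tested genes.

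Without the replicate block, 0 of the 7 tested genes passed the FDR of 0.01, where 0.965% of all tested genes did (136 of 14099), 0.738% as higher and 0.227% as lower with the FCN3 virus, and 3 of the 7 (CP, APOH and LCN2) had an unadjusted p under 0.05, as did 25.1% of all tested genes. DESeq2 without the block called 0 of the 5 for which it gave an adjusted p, having given none for SERPINA3 and LCN2. Over all genes it called 7.86% (1047 of 13317). With the replicate block in edgeR, FGA, FGB, CP and APOH fell and LCN2 rose, whereas FGG and SERPINA3 did not pass. The same fit called 17.1% of all tested genes as lower and 19.1% as higher with the FCN3 virus, 36.2% in all, so a call in it is common. It leaves 1 residual degree of freedom, and the spread is largely borrowed from other genes. The 7 genes passed the filter partly because of the libraries in which they were high, so their number is given as a description. In these bulk samples, fewer cells expressing a gene and less RNA per cell cannot be told apart.

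**Figure D2:**
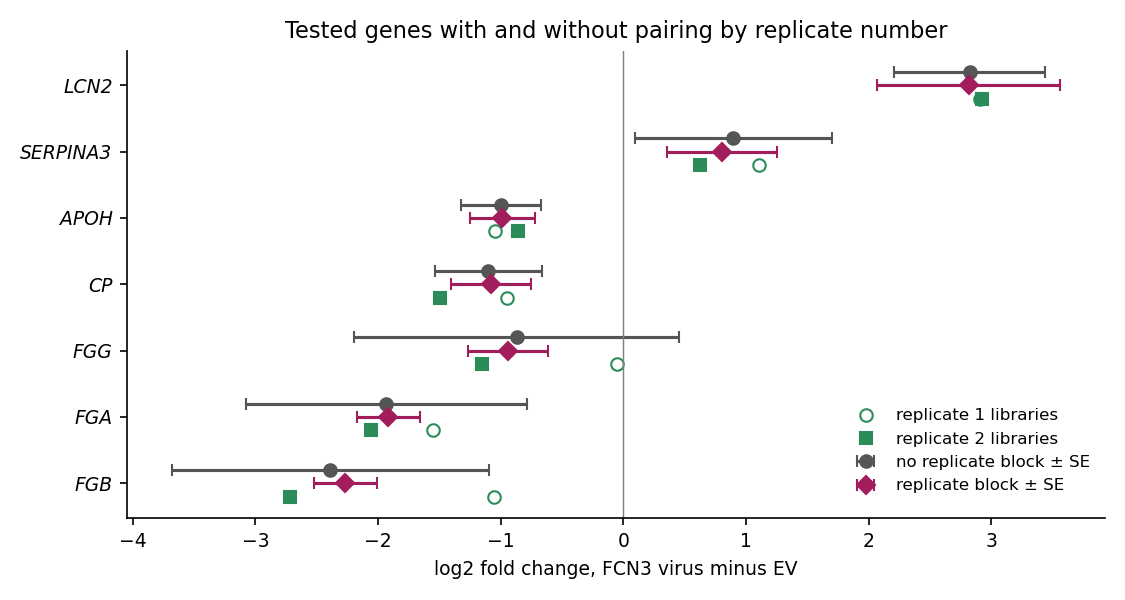
The log2 fold change (FCN3 virus minus EV) of the 7 tested genes, without (grey circles) and with (purple diamonds) the replicate block, with standard errors as bars, and the log2 ratio within each replicate number (green). The block narrows the bars of FGA, FGB and FGG most, and the ratios of the replicate 2 libraries lie further below 0 than those of the replicate 1 libraries for these genes.

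The fibrinogen genes lie side by side on chromosome 4 of GRCh37. FGB is on the plus strand from 155484163 to 155493959, FGA on the minus strand from 155504278 to 155511894 and FGG on the minus strand from 155525286 to 155534119, a span of 49957 bases. All are annotated as protein-coding. For these neighbouring genes, the 250 bases before each start site are shown here, 5′ to 3′ on the strand of the gene, from RefSeq on GRCh38.p14. Capitals mark matches on either strand to the motifs searched, CTGGGA (interleukin-6 response motif), TTNNGNAA (C/EBP), TTCNNNGAA (STAT), GTTAAT (a motif of liver promoters), CCACG (part of the ER stress response element) and TGACGT (core of the cyclic AMP and UPR elements).
FGA (chr4:154590743-154590992, minus strand): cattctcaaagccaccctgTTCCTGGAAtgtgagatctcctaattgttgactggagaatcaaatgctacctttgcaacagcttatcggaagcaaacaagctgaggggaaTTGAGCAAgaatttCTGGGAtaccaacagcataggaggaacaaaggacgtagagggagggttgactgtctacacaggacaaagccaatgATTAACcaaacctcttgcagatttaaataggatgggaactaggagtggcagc
FGB (chr4:154562730-154562979, plus strand): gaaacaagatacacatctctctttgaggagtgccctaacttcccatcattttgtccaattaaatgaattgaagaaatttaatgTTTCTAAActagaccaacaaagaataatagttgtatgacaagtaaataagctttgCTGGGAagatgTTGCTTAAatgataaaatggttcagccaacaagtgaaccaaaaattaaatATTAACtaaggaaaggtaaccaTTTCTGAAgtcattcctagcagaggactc
FGG (chr4:154612657-154612906, minus strand): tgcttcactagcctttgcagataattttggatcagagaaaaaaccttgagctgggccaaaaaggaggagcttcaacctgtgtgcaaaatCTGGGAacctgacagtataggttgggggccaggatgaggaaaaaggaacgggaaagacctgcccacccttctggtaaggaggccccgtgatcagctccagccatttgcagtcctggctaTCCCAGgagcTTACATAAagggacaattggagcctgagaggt
In FGA, CTGGGA lay from base -127 to -122 before the start site, a C/EBP match from -141 to -134, GTTAAT (on the other strand) from -52 to -47 and a STAT match from -231 to -223. In FGB the first 3 of these lay from -112 to -107, from -101 to -94 (with further C/EBP matches from -167 and -29) and from -51 to -46. FGG held CTGGGA at -161 and, on the other strand, at -42, and a C/EBP match at -32, without a match to GTTAAT in these 250 bases. No matches overlapped. A second FGB start site in the table lies 31 bases downstream and its window holds the same kinds of matches. Among all 35116 promoter windows of this length, CTGGGA was found in 28.7%, TTNNGNAA in 33.2%, TTCNNNGAA in 6.57%, GTTAAT in 6.23%, CCACG in 33.5%, TGACGT in 7.1% and the first 2 motifs with GTTAAT together in 0.547%. The matches are descriptions of the sequence, and no binding was measured.

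FGA encodes the Aα chain, whose N-terminal peptide thrombin removes when fibrin forms. Its expected counts were 41 and 126 in EV replicates 1 and 2, and 13 and 36 in FCN3 replicates 1 and 2, which correspond to 1.13, 7.53, 0.383 and 1.81 CPM. The groups overlapped, since EV replicate 1 was below FCN3 replicate 2, but within each replicate number the FCN3 library was the lower. The log2 fold change of FGA was -1.93 (standard error, SE, 1.15, adjusted p = 0.366) without the block and -1.92 (SE 0.25, adjusted p = 8.81e-09) with it. The ratio of FCN3 to EV was 0.341 (95% counting interval 0.168 to 0.649) between the replicate 1 libraries and 0.2405 (0.161 to 0.351) between the replicate 2 libraries.

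FGB encodes the Bβ chain. Its levels were 1.04 and 10.9 CPM in EV replicates 1 and 2 (38 and 183 counts) and 0.501 and 1.66 CPM in FCN3 replicates 1 and 2 (17 and 33 counts). As with FGA, the groups overlapped and the FCN3 library was lower within each number. FGB differed by a log2 fold change of -2.39 (SE 1.296, adjusted p = 0.324) without the block and -2.27 (SE 0.25, adjusted p = 1.06e-10) with it. The ratio was 0.481 (95% counting interval 0.254 to 0.872) for replicate 1 and 0.152 (0.101 to 0.221) for replicate 2, intervals that do not overlap, so the size of the FGB decrease differed between the replicate numbers by more than counting error.

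FGG encodes the γ chain, which carries a binding site for platelet integrin. Its counts were 10 and 60 in EV replicates 1 and 2 and 9 and 32 in FCN3 replicates 1 and 2, or 0.274, 3.58, 0.265 and 1.61 CPM. Between the replicate 1 libraries the ratio was 0.967 (95% counting interval 0.348 to 2.65), whereas in replicate 2 the FCN3 library was lower, with a ratio of 0.449 (0.283 to 0.701). In log2 units the difference was -0.87 (SE 1.33, adjusted p = 0.737) without the block and -0.94 (SE 0.33, adjusted p = 0.0155) with it, and passed the threshold in neither fit. In the unpaired fit the direction of FGG changed when single libraries were left out, being 1.49 without EV replicate 2 and 0.08 without FCN3 replicate 1. With a library left out, the replicate numbers are unequal between the groups, so a difference by replicate number enters these values and those that follow. Without EV replicate 2, the log2 fold changes of FGA and FGB were -0.28 and -0.14. Over each library left out in turn, they ran from -3.30 to -0.28 for FGA and from -3.52 to -0.14 for FGB.

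In all 3 chains the estimated difference by replicate number was larger than that by virus, a contrast that was not itself tested. With the group in the model, replicate 2 was above replicate 1 by 2.61 (SE 0.25) for FGA, 2.97 (SE 0.25) for FGB and 3.24 (SE 0.35) for FGG on the log2 scale, each past the FDR of 0.01 in edgeR's test, as were 22.2% of all tested genes. Only 12, 10 and 7 of the 14099 tested genes had a larger excess in replicate 2 than FGA, FGB and FGG, and the median absolute difference was 0.17. In EV cells, replicate 2 was 6.69-fold above replicate 1 for FGA, 10.5-fold for FGB and 13.1-fold for FGG, and in FCN3 cells 4.72-fold, 3.31-fold and 6.06-fold. Replicate 2 was the shallower library in both groups. The summed fibroblast markers were also higher in replicate 2, ranging from 11.5 to 27.4 CPM over the EV libraries and from 9.64 to 27.8 CPM over the FCN3 libraries. COL1A1 made up most of this sum, at 10.7 and 25.8 CPM in EV replicates 1 and 2. COL3A1 was also called higher in replicate 2, but PDGFRA was not. COL1A2 and LUM had 2 counts at most in a library, and DCN was at 0 in all. In edgeR, 5 of 6 epithelial markers were called higher in replicate 2, where 11.7% of all tested genes were. The part of these in the fibrinogen levels was not tested.

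**Figure D3:**
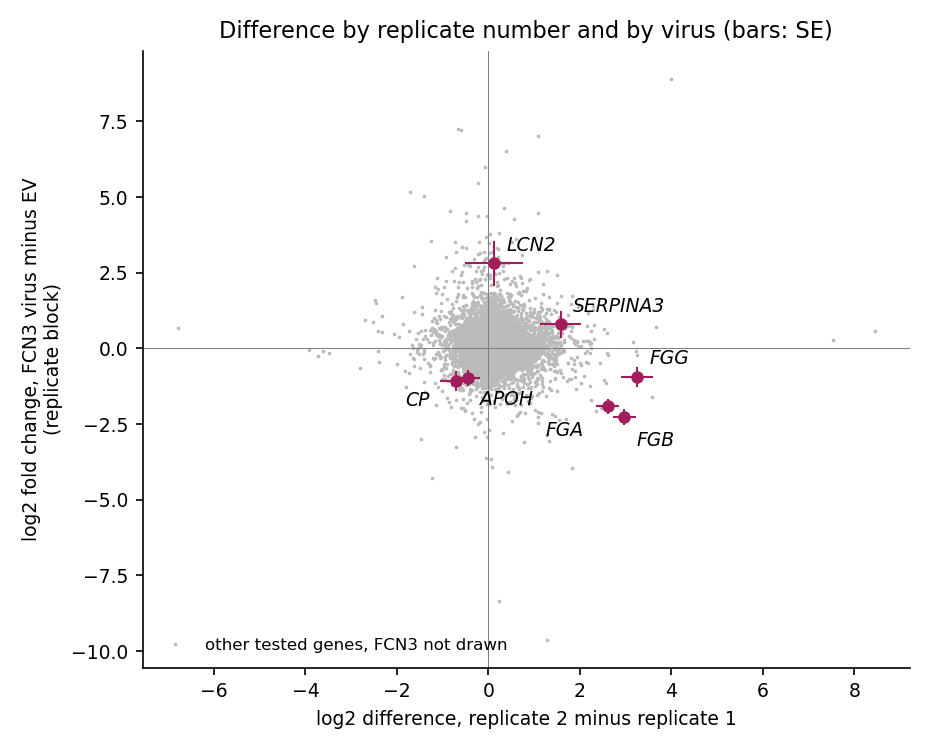
Each tested gene by its log2 difference between replicates 2 and 1 (horizontal) and its log2 fold change between the FCN3 virus and EV (vertical, replicate block), with standard errors as bars for the plasma protein genes and FCN3 not drawn. FGA, FGB and FGG stand far to the right of nearly all other genes and below 0, and LCN2 stands above 0 with little difference by replicate number.

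The share of FGG in the fibrinogen counts was higher in both FCN3 libraries. FGG took 11.2% (exact 95% interval 5.52 to 19.7) and 16.3% (12.6 to 20.4) of the chain counts in EV replicates 1 and 2, and 23.1% (11.1 to 39.3) and 31.7% (22.8 to 41.7) in FCN3 replicates 1 and 2. The groups did not overlap, but the intervals of the replicate 1 libraries did. FGA took between 33.3% and 46.1% and FGB between 32.7% and 49.6% of the counts in the 4 libraries, with overlap between groups. By TPM, which is scaled to transcript length, the groups did not overlap for either chain, FGA taking 53.2% and 39.5% in EV replicates 1 and 2 against 37.2% and 36.5% in FCN3 replicates 1 and 2, and FGB 28.9% and 34.4% against 27.9% and 19.7%. With 2 libraries against 2, an exact permutation test cannot give a two-sided p below 0.33, and no test was made. Per transcript length, the summed level of the 3 chains was 1.9 and 16.7 TPM in EV replicates 1 and 2 and 0.86 and 4.16 TPM in FCN3 replicates 1 and 2.

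**Figure D4:**
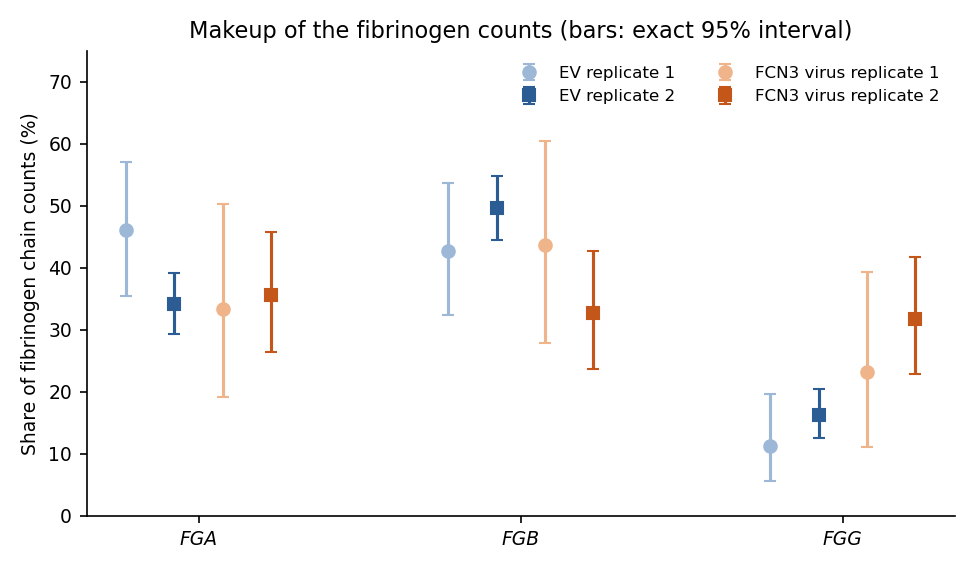
Share of FGA, FGB and FGG in the summed counts of the fibrinogen chains in each library, in percent, with exact intervals of 95% as bars. FGG is at 11.2% and 16.3% in the EV libraries and at 23.1% and 31.7% in the FCN3 libraries.

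As a description of likeness, the distance between log2 CPM profiles, centred over the 4 libraries, was computed from each chain to the 14098 other tested genes. FGB was the 2nd nearest to FGA, after MYOCD, a coactivator of smooth muscle genes, and before EMID2. The nearest to FGB was H19, an imprinted non-coding RNA, followed by FGA and MYOCD. FGG was nearest to USH1C, MYL9 and TM4SF20, and had FGA at rank 22 and FGB at rank 32. MYOCD was at 1.48 and 7.47 CPM in EV replicates 1 and 2 and at 0.324 and 1.81 CPM in FCN3 replicates 1 and 2, close to the levels of FGA. H19 was at 0.960, 7.71, 0.590 and 1.26 CPM in the same order.

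APOH, or β2-glycoprotein I, binds phospholipids and is the main antigen of antiphospholipid antibodies. The gene maps to chromosome 17 of GRCh37 (64208151 to 64252643, minus strand). Its levels were 2.50 and 1.73 CPM in EV replicates 1 and 2 (91 and 29 counts) and 1.21 and 0.955 CPM in FCN3 replicates 1 and 2 (41 and 19 counts). Both FCN3 libraries were below both EV libraries, a separation that 54.5% of tested genes showed, 28% with FCN3 higher and 26.5% with FCN3 lower. On the log2 scale, FCN3 minus EV was -0.996 (SE 0.327, adjusted p = 0.14) without the block and -0.99 (SE 0.26, adjusted p = 0.00156) with it, and the ratio was 0.484 and 0.551 within replicates 1 and 2. DESeq2 with the block did not call APOH (adjusted p = 0.248). Unlike the fibrinogen chains, APOH did not pass the test by replicate number (replicate 2 minus replicate 1 -0.45, SE 0.28, adjusted p = 0.211 in edgeR). The 250 bases before its start site are shown for comparison with those of fibrinogen, since they hold GTTAAT on either strand, at -210 and -49, and a C/EBP match at -168, but not CTGGGA.
APOH (chr17:66229416-66229665, minus strand): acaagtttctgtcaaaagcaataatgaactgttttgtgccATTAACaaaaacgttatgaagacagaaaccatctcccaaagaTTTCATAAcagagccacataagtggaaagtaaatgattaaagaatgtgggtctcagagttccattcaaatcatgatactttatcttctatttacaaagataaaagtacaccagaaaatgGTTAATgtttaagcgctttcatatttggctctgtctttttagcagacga

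CP, or ceruloplasmin, is a copper-binding ferroxidase that helps load iron onto transferrin. The gene maps to chromosome 3 (148880197 to 148939616, minus strand) and overlaps HPS3 on the other strand, and whether the counting used strand is not given in the sources used here. Its expected counts were 59.79 and 19.17 in EV replicates 1 and 2 and 29.46 and 8.14 in FCN3 replicates 1 and 2, or 1.65, 1.14, 0.855 and 0.402 CPM, with both FCN3 libraries below both EV libraries. Of all tested genes, 26.5% were likewise lower with the FCN3 virus without overlap. The log2 fold change of CP was -1.10 (SE 0.44, adjusted p = 0.199) without the block and -1.08 (SE 0.32, adjusted p = 0.00486) with it. DESeq2 with the block did not call CP (adjusted p = 0.267). Without the filter on low counts, the adjusted p with the block was 0.0169 in edgeR, where 22.8% of 18636 genes were called, and so above the threshold. Leaving out each library in turn, without the block, gave log2 fold changes from -1.84 to -0.72.

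TF, or transferrin, and HP, or haptoglobin, the plasma carriers of iron and of free hemoglobin, were not detected beyond the floor. TF had 1 expected count in EV replicate 2 and 0 in the other libraries, and HP had 0 in all 4. Its near-identical copy HPR had 1 count in EV replicate 1 and 0 elsewhere, so the counts of the pair summed to 1 at most in a library. No fold is given for these genes. The floor of 3 counts that a count of 0 allows was 0.0856 CPM in FCN3 replicate 1 and 0.149 CPM in FCN3 replicate 2.

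SERPINA1, or α1-antitrypsin, inhibits neutrophil elastase, and variants of it that polymerize in the ER cause disease. It had 11 and 4 counts in EV replicates 1 and 2 and 7 and 2 in FCN3 replicates 1 and 2. In CPM these are 0.302, 0.239, 0.206 and 0.101, with FCN3 replicate 2 under the floor of 3 counts. Both FCN3 libraries were below both EV libraries, as in 26.5% of all tested genes. SERPINA1 did not pass the filter, and the ratio of the summed counts was 0.593 (95% counting interval 0.229 to 1.45), an interval that includes 1. Without the filter its log2 fold change was -0.74 (SE 0.65, adjusted p = 0.564 in edgeR, and 0.443 with the replicate block). A difference was not detectable at this depth.

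SERPINA3, or α1-antichymotrypsin, inhibits cathepsin G and is an acute phase protein. Its levels were 0.192 and 0.717 CPM in EV replicates 1 and 2 (7 and 12 counts) and 0.413 and 1.11 CPM in FCN3 replicates 1 and 2 (14 and 22 counts). The groups overlapped. As with fibrinogen, replicate 2 was higher (log2 difference 1.58, SE 0.44, adjusted p = 0.00423 in edgeR), but the FCN3 library was here the higher within each number, by ratios of 2.15 (95% counting interval 0.812 to 6.29) and 1.54 (0.731 to 3.42). Both intervals include 1. The ratio of the summed counts, which ignores the replicate numbers, was 1.87 (1.05 to 3.46). SERPINA3 differed by a log2 fold change of 0.90 (SE 0.80, adjusted p = 0.548) without the block and 0.80 (SE 0.45, adjusted p = 0.138) with it. Without EV replicate 1 it was -0.08 in the unpaired fit, which then sets both FCN3 libraries against EV replicate 2 alone.

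LCN2, or lipocalin 2, withholds bacterial siderophores and is made by many stressed epithelia as well as by liver. The gene maps to chromosome 9 (130911350 to 130915732, plus strand). Its counts were 2 and 1 in EV replicates 1 and 2, at or under the floor, and 14 and 9 in FCN3 replicates 1 and 2, so that it passed the filter through the FCN3 libraries. In CPM these are 0.0549, 0.0597, 0.413 and 0.453, with no overlap between groups. Of all tested genes, 28% were likewise higher with the FCN3 virus without overlap. In log2 units the difference was 2.82 (SE 0.62, adjusted p = 0.0454) without the block and 2.82 (SE 0.75, adjusted p = 0.00152) with it. The ratio of the summed counts, 23 against 3, was 7.58 (95% counting interval 2.29 to 39.4), and it was 7.52 and 7.58 within replicates 1 and 2. Since its high group decided that it was tested, the values with no filter bear on it more directly, and there edgeR's adjusted p was 0.0599 unpaired and 0.00745 under the block. With the filter, LCN2 alone of the 10 passed an FDR of 0.05 without the block, as did 7.19% of tested genes (4.43% as higher), but its adjusted p was 0.232 without EV replicate 2 and 0.186 without FCN3 replicate 2. DESeq2 gave no adjusted p for LCN2, with or without the block. Its promoter window is shown because, in edgeR with the replicate block only, LCN2 was called higher while FGA and FGB were called lower. It held a single C/EBP match, from -143 to -136, and no other motif searched.
LCN2 (chr9:128149203-128149452, plus strand): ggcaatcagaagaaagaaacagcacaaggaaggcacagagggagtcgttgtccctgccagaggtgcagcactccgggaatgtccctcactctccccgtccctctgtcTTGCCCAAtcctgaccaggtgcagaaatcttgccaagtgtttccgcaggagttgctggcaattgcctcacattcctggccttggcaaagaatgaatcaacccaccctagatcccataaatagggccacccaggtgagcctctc
Of the other genes of the group, SERPINA1, SERPINA3 and TF had promoter windows in the table, while CP and HP were not matched. The second SERPINA1 window held CTGGGA at -131 (on the other strand), a C/EBP match at -202 and GTTAAT at -76. These motifs were also found together in FGA and FGB. The first SERPINA1 window held CCACG alone, at -16. SERPINA3 and the second TF window each held a C/EBP match alone, at -63 and -98. No window of the 8 matched genes held TGACGT.

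Fold changes of related genes were read from 6 lists, of which 108 genes were tested. Without the replicate block 3 of them were called, IGFBP4, CEBPG and SEC24D, and with it 59, 38 higher and 21 lower with the FCN3 virus. Over all tested genes the shares were 0.965% without the block and 36.2% with it, 19.1% higher and 17.1% lower. The median log2 fold change of all tested genes was 0.02.

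Of 67 other plasma proteins in the tables, 22 were tested and 17 were at 0 in every library. Their median log2 fold change was -0.12, 1 was called lower without the block, and 8 were called lower and 1 higher with it. IGFBP4, which binds insulin-like growth factors, was by far the most abundant and was at 2192 ± 228 CPM in EV and 942 ± 45.8 CPM in FCN3 cells (SD, n = 2), and fell by 1.22 on the log2 scale (SE 0.11, edgeR adjusted p = 0.00824). With the block, AMBP, the precursor of α1-microglobulin, fell from 2.72 ± 0.204 to 1.07 ± 0.236 CPM, and VTN, or vitronectin, fell from 5.99 ± 5.13 to 2.80 ± 1.37 CPM. ITIH4, an acute phase inhibitor, was the called increase, from 0.865 ± 0.719 to 2.31 ± 1.43 CPM. SERPINA6, the corticosteroid carrier, named after its values were seen, had 63 and 23 counts in EV replicates 1 and 2 and 9 and 6 in FCN3 replicates 1 and 2 (log2 fold change -2.50, edgeR adjusted p = 0.0291, and 4.14e-07 with the block).

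Among genes with a fibrinogen-like domain other than FCN3, 7 of 19 were tested and 7 were at 0 in every library. The median log2 fold change was -0.15, 0 were called without the block (the edgeR adjusted p of all 7 being 0.0667 or more), and 3 were called higher and 1 lower with it. ANGPTL4, an inhibitor of lipoprotein lipase, was at 19.2 ± 4.47 CPM in EV and 29.5 ± 1.55 CPM in FCN3 cells, FIBCD1 at 3.07 ± 0.787 and 5.35 ± 1.02 CPM, and TNXB, a tenascin, at 0.472 ± 0.00806 and 1.76 ± 0.716 CPM (SD, n = 2). The called decrease was FGL1, a liver protein related to fibrinogen, with 51 and 19 counts in EV replicates 1 and 2 and 7 and 15 in FCN3 replicates 1 and 2, named after its values were seen.

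In the list of fibrin formation and lysis at the cell surface, 12 of 16 genes were tested, with a median log2 fold change of 0.31. None was called without the block in edgeR, and 7 were higher and 2 lower with it. SERPINE2, which inhibits thrombin, was at 161 ± 11.7 CPM in EV and 304.5 ± 13.05 CPM in FCN3 cells (SD, n = 2), TFPI, the inhibitor of tissue factor, at 16.8 ± 3.38 and 30.2 ± 1.31 CPM, and the thrombin receptor THBD at 19.4 ± 9.09 and 28.1 ± 7.07 CPM. In edgeR these 3 were called with the block only, SERPINE2 lying just above the threshold without it. DESeq2 without the block called 4 genes of the list, and 7.86% of all genes it tested.

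Of 29 regulators of liver and acute phase genes, 27 were tested, with a median log2 fold change of -0.01. CEBPG, a C/EBP factor that pairs with ATF4, rose from 90.7 ± 1.10 to 221 ± 15.5 CPM (SD, n = 2), by 1.28 on the log2 scale (SE 0.09, edgeR adjusted p = 0.00353), and was the call without the block. With the block 6 were higher and 7 lower. CEBPD, a C/EBP factor of the acute phase response, was at 11.4 ± 2.02 CPM in EV and 6.97 ± 1.82 CPM in FCN3 cells, IL1R1, the interleukin-1 receptor, at 43.4 ± 10.8 and 27.4 ± 2.57 CPM, and the cytokine LIF at 90.7 ± 18.8 and 133 ± 29.98 CPM, all called in edgeR with the block only. STAT3 was at 242 ± 18.2 and 240 ± 20.6 CPM.

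Among receptors and uptake proteins for these plasma proteins, 17 of 22 genes were tested, with a median log2 fold change of 0.16. In edgeR 0 were called without the block, while 7 were higher and 1 lower with it. STEAP3, the endosomal ferrireductase of the transferrin cycle, was at 118 ± 2.603 CPM in EV and 211 ± 13.03 CPM in FCN3 cells (log2 fold change 0.84, edgeR adjusted p = 0.0108), and the transferrin receptor TFRC at 329 ± 53.4 and 309 ± 43.6 CPM. HMOX1, which breaks down heme, was at 207 ± 72.95 and 341 ± 42.05 CPM. ITGB3, a subunit of fibrinogen-binding integrins, was at 5.53 ± 1.06 and 9.47 ± 4.29 CPM, and ICAM1, the decrease called with the block, at 2.96 ± 1.55 and 1.42 ± 0.838 CPM (SD, n = 2).

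All 23 genes of the list for export from the ER were tested, with a median log2 fold change of 0.37. Without the block SEC24D, a cargo-binding subunit of the COPII coat, rose from 29.1 ± 3.42 to 123 ± 12.02 CPM (SD, n = 2), by 2.07 on the log2 scale (SE 0.13, edgeR adjusted p = 0.00296). With the block, 14 were higher and 2 lower, where 19.1% and 17.1% of all tested genes were. TMED7 was at 94.5 ± 23.1 and 226 ± 44.95 CPM and TMED10 at 202 ± 15.9 and 371 ± 20.3 CPM, both of them p24 cargo receptors, and KDELR3, which returns ER proteins, was at 14.2 ± 1.25 and 25.3 ± 0.257 CPM. LMAN1 and MCFD2, the receptor pair known for carrying SERPINA1 and clotting factors, named after their values were seen, were at 130 ± 17.1 and 269 ± 24.8 CPM in EV cells and at 223 ± 25.6 and 408 ± 41.6 CPM in FCN3 cells. In edgeR the 22 genes besides SEC24D did not pass without the block. DESeq2 without the block called 11 of the list, and 7.86% of all genes it tested.

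**Figure D5:**
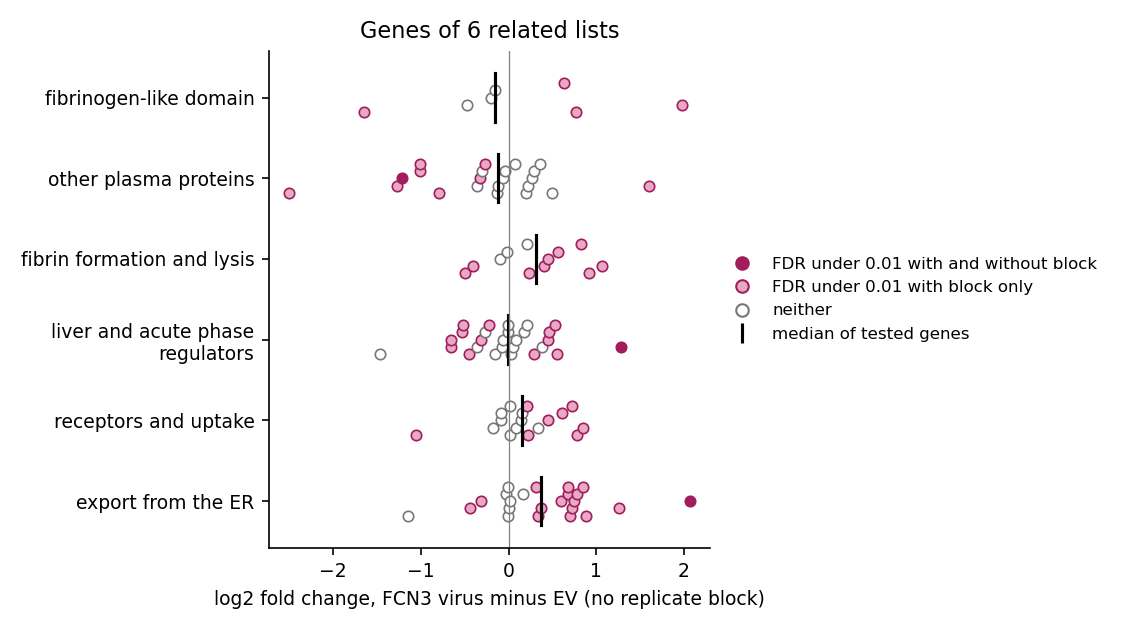
The log2 fold change (FCN3 virus minus EV, no replicate block) of each tested gene in the 6 related lists, with the median of each list as a bar, dark points for genes past an FDR of 0.01 in both fits and light points for those past it with the block only. The medians run from -0.15 for genes with a fibrinogen-like domain to 0.37 for export from the ER, and IGFBP4, CEBPG and SEC24D are the 3 points called in both fits.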

How the data were processed

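Polyadenylated RNA of 4 A549 samples was sequenced by the study as read pairs from a stranded kit. Reads were trimmed, aligned to hg19 with STAR (version 2.6.1d) and quantified with RSEM. The authors deposited RSEM expected counts, in which reads that fit several genes are divided between them, and TPM values per gene. FPKM values were not used. The gene annotation and the strand setting are not given in the sources used here. The 10 genes, the gene lists and the motifs were chosen with earlier results of these data known, and the genes named from each list are at most the 4 with the largest fold change among those called in either fit with a mean CPM of at least 1. A gene that this rule names is not reported here.

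Expected counts were rounded to whole numbers and tested with edgeR (version 4.0.16, R version 4.3.3), using TMM normalisation, filterByExpr and the quasi-likelihood test, with Benjamini-Hochberg adjustment over 14099 genes and an FDR of 0.01. The fit was tested on simulated data in which the changed genes were drawn from genes with higher counts than the plasma protein genes described here. The simulation thus does not bear on their p-values. Standard errors were derived as |log2 fold change| / sqrt(F). The replicate number was added as a block in a second fit. Across 8268 genes with a log2 CPM above 4, the difference between replicates 2 and 1 in EV correlated with that in FCN3 (Pearson r = 0.802 across genes, which are not independent replicates), but the labels give only a shared number. Counting intervals have a level of 95%. Positions are from GENCODE lifted to GRCh37, and promoter windows from RefSeq on GRCh38.p14. DESeq2 (version 1.42.0), limma (version 3.58.1) on log2 TPM with pseudocounts of 1 and 0.1, RLE scaling, other filters, FCN3 left out, an FDR of 0.05 and the removal of each library were the alternatives.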

Additional observations from a re-analysis of the deposited data

How the results depend on the processing

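Of 99 log2 fold changes of the 7 tested plasma protein genes under alternatives, 96 kept their direction and 3 reversed. FGG was 1.49 without EV replicate 2 and 0.08 without FCN3 replicate 1, with a range of -2.50 to 1.49 over each library left out, and SERPINA3 was -0.0755 without EV replicate 1, with a range of -0.0755 to 1.79. Against 0 of the 7 genes called, the replicate block called 5, DESeq2 with the replicate block 2 (FGA and FGB), an FDR of 0.05 gave 1 (LCN2), and the replicate block with no filter on low counts, added after seeing the data, called 4 (FGA, FGB, APOH and LCN2). The other alternatives, each library left out among them, called 0, but LCN2 did not enter the fits without EV replicate 1 or without FCN3 replicate 1, nor did LCN2, FGG, SERPINA3 and CP enter that with at least 10 counts in every library. With a library left out, the replicate block has no residual degrees of freedom and was not fitted. The values with a library left out are thus unpaired, and a difference by replicate number enters them.

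Over all tested genes, where 136 were called, DESeq2 called 1047, DESeq2 with the replicate block 2212, the replicate block 5103, the block without the filter 4241, limma on log2(TPM + 1) without a filter 15 and an FDR of 0.05 gave 1014. As shares of the genes tested in each setting, these were 7.86%, 16.2%, 36.2%, 22.8%, 0.0804% and 7.19%. Leaving out each library gave 92 to 267, the highest without EV replicate 2. In the 6 related lists, where 3 genes were called, the same settings called 21, 39, 59, 54, 0 and 22, leaving FCN3 out before normalisation 5, and leaving out each library 2 to 6 (6 without EV replicate 1 and without EV replicate 2). The sum of HP and HPR could not be fitted, having 1 count in all. With the block, the calls of FGA, FGB, CP, APOH and LCN2 rest on 1 residual degree of freedom and a prior of 49.1 degrees of freedom. Depth limits LCN2, SERPINA1, HP and TF most, since a library floor of 3 counts is up to 0.183 CPM.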

Other observations

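Other plasma protein genes also differed between the replicate numbers within both groups, with the group in the edgeR model. APOE, the lipid carrier, was at 1.76 and 8.66 CPM in EV replicates 1 and 2 and at 2.48 and 9.20 CPM in FCN3 replicates 1 and 2, a log2 difference of 2.08 (adjusted p = 1.06e-14). VTN, or vitronectin, was higher in replicate 2 by 1.63 (adjusted p = 1.36e-09) and F2, or prothrombin, by 1.08 (adjusted p = 4.17e-04). HNF4A, a factor known for liver genes, was at 9.88 and 28.2 CPM in EV replicates 1 and 2 and at 15.3 and 30.2 CPM in FCN3 replicates 1 and 2 (log2 difference 1.23, adjusted p = 6.07e-15).

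Others went the opposite way. IGF2, a growth factor, was at 12.8 and 5.14 CPM in EV replicates 1 and 2 and at 16.2 and 6.23 CPM in FCN3 replicates 1 and 2, and NR5A2, a nuclear receptor, at 72.8, 33.3, 53.7 and 19.6 CPM in the same order. TNC, a tenascin with a fibrinogen-like domain, was at 3.05 and 2.89 CPM in the replicate 1 libraries of EV and FCN3 and at 0.179 and 0.201 CPM in the replicate 2 libraries (log2 difference -3.92, adjusted p = 3.17e-11 in edgeR). These genes were named after their values were seen. Of the 22 other plasma proteins tested, 7 were called higher and 2 lower in replicate 2, where 11.7% and 10.5% of all tested genes were.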
